A study of Homo sapiens with 156 samples.

Results

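The data described here are from NOMO1, a human acute myeloid leukemia cell line of monocytic type that carries a rearranged KMT2A gene, grown for 4 days in decitabine (DAC) at 16 or 80 nM. Of 156 libraries in the series, which covers 3 cell lines, 52 are from NOMO1, and the 4 libraries of these doses (2 at 16 nM, 2 at 80 nM) were chosen by their labels together with the 2 solvent (DMSO, 0 nM) libraries of the same day. The study followed DNMT1 inhibitors over dose and time. DAC at 3.2 nM (2 libraries) is shown as a lower reference, DAC at 400 nM (2 libraries) as the next dose up, and GSK032 at 80 nM (2 libraries), another DNMT1 inhibitor, as the matched dose of a different compound. All groups had been plated a day before treatment and are untransfected cells of 1 line. The labels do not say whether the libraries of a group are from separate cultures; the p-values reflect library-to-library spread, which may be technical.

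DNMT1 copies cytosine methylation onto the new strand when DNA is replicated. Decitabine is a cytosine analog that is phosphorylated inside the cell, is built into DNA and binds DNMT1 covalently, so that methylation is lost as cells divide. Promoters of germline genes, of parts of imprinted regions and of many tissue-restricted genes are kept methylated in most adult cells, and genes of these kinds are well known to be transcribed after such treatment.

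Values are FPKM (fragments per kilobase of transcript, scaled to the size of the library), a level per length. Differences were tested with limma on log2(FPKM + 0.5), which understates changes of genes at low level, with the spread shared by all 52 NOMO1 libraries. An SE or p-value therefore reflects this shared spread and can understate the spread of a pair of libraries that lie far apart. A gene was called when its p, adjusted by Benjamini and Hochberg over 20763 genes, was below 0.05 and its log2 change was at least 1 in size. In the low-dose and solvent libraries the scale estimated from steps between low values ran from 57.4 to 97.4 M fragments. All 8 markers listed for the myeloid lineage had a mean of at least 1 FPKM in every dose group and in DMSO, and their summed level was 5716 and 5938 FPKM in DMSO, 6479.6 and 6459.7 at 16 nM, and 5786 and 6140.5 at 80 nM. Of 4 markers for each of 5 other cell types, the number with a mean of at least 1 FPKM in DMSO was 1 for T cells, 1 for B cells, 0 for erythroid cells, 0 for fibroblasts and 2 for epithelium, and at 80 nM 2, 2, 1, 2 and 2. Summed levels in DMSO and at 80 nM were 1.51 and 1.65 against 3.82 and 4.26 FPKM for B cells, 0.2 and 0 against 1.02 and 1.58 for erythroid cells, 0.292 and 0.61 against 3.22 and 4.58 for fibroblasts, and 8.22 and 8.45 against 42.6 and 57.5 for epithelium. Most of the myeloid sum in DMSO and at 80 nM was LYZ, and most of the epithelial sum was KRT8. These sums need not follow the other markers of their type. T cell markers are given with the T cell genes. All libraries are from 1 cell line, and in bulk RNA, more cells that express a marker and more RNA per cell cannot be told apart.

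The library of 80 nM DAC, replicate 2, stood apart. The SD of the log2 difference between the 80 nM libraries was 0.77, above the 0.54 to 0.72 of the other 25 groups, and 2052 genes differed by at least 1 between them against 1301 to 1895 elsewhere. Without small RNA genes the SD was 0.62, against 0.41 to 0.54 elsewhere, and 1169 genes differed, against 577 to 961, so this pair was also the widest apart in other genes. Of 217 small RNA genes with at least 20 FPKM in one 80 nM library, 37 were over 10-fold lower in replicate 2 and 1 was over 10-fold lower in replicate 1, while at 16 nM these numbers were 4 and 1 of 224. SNORA63, a small nucleolar RNA that guides rRNA modification, was at 5631 FPKM in replicate 1 and 16.5 in replicate 2, and SNORD97 was at 707 and 2.03. Of 5488 other genes at that level, 7 were over 10-fold lower in replicate 2 and 9 in replicate 1, beside 1 and 3 of 5216 at 16 nM. Results at 80 nM are therefore also given without this library. Separately, 51 genes were higher in every NOMO1 library of replicate 2 than in every one of replicate 1, and 0 the other way. FGF23 ranged from 0.0041 to 1.44 FPKM in the first set and from 30.6 to 93.9 in the second.

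**Figure D1:**
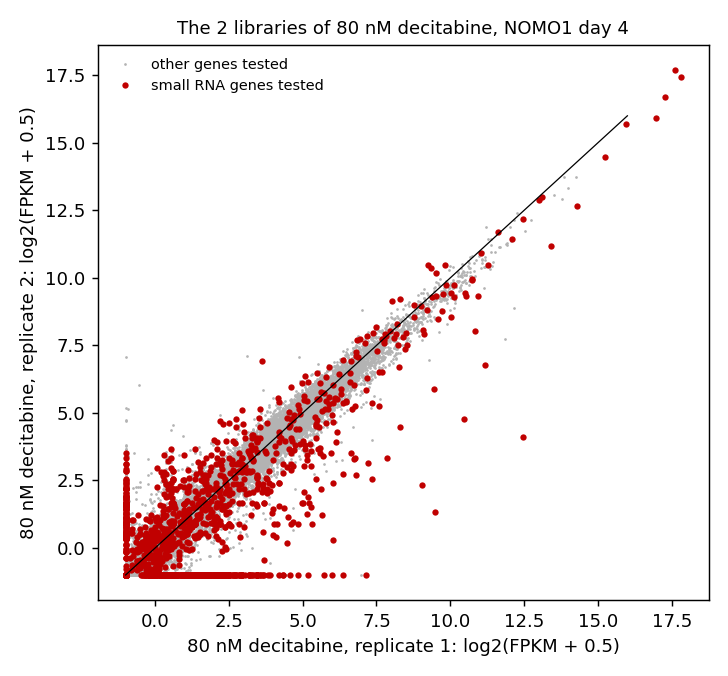
Level of each tested gene in replicate 1 (horizontal) and replicate 2 (vertical) of 80 nM DAC, both as log2(FPKM + 0.5). Small RNA genes are red and the line marks equal levels. A group of red points lies far below the line, among them SNORA63 (5631 and 16.5 FPKM).

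Transcripts of DNMT1 itself did not pass the test. DNMT1 was at 61.6 and 53.3 FPKM in DMSO, 51.9 and 50.1 at 16 nM, and 48.3 and 57.2 at 80 nM. Of the 80 nM libraries 1 lay between the DMSO libraries and 1 below both. The 95% interval of its log2 change was -0.39 to 0.06 at 16 nM and -0.35 to 0.10 at 80 nM. UHRF1, which brings DNMT1 to replicated DNA, was at 60.5 and 65.1 FPKM in DMSO and 45.4 and 53.6 at 80 nM, a log2 difference of -0.34 (SE 0.07, adjusted p = 0.00026) that is short of the size needed for a call. DNMT3B, a de novo methyltransferase, differed by 0.43 (adjusted p = 0.000103), from 4.64 and 5.22 FPKM to 6.2 and 7.44. The log2 differences at 80 nM were -0.20 for DCK, the kinase that activates decitabine, 0.48 for CDA, the deaminase that inactivates it, and 0.32 for SLC29A1, a nucleoside transporter. In the list of 20 genes of DNA methylation 1 was called at 80 nM, CDCA7, an adaptor of a remodeller needed for methylation, which fell from 28.8 and 29.1 FPKM to 13.8 and 13.7. Over all genes 1.04% were called higher and 0.135% lower at 16 nM, and 6.51% higher and 2.41% lower at 80 nM. These shares are the reference for the list counts that follow.

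At 3.2 nM the test in limma called 0 genes higher (0.0%) and 2 lower (0.00963%), with 1409 higher and 744 lower at an unadjusted p below 0.05. One of the 2 was ALDOC, a brain-type glycolytic aldolase, which was at 20.1 and 19.5 FPKM in DMSO and 2.81 and 2.92 at 3.2 nM. At 16 nM 216 genes were called higher and 28 lower, and at 80 nM 1352 and 500. Without the library of 80 nM replicate 2 the 80 nM counts were 1254 and 305, which are 6.04% and 1.47% of the genes tested. Of the 500 genes called lower 196 were also called without it, and of the 1352 called higher 1091 were. Small RNA genes made up 163 of the 500, and 33 of these 163 were also called without the library. When the fit held only the 4 libraries of a comparison, 0 genes were called at 16 nM in either direction (2135 higher and 1314 lower at an unadjusted p below 0.05), and 475 higher and 101 lower at 80 nM, so the 16 nM calls rest on the spread shared with the other groups. On the X chromosome lay 6.02% of the genes higher at 16 nM and 5.18% of those at 80 nM, against 3.11% of all genes tested. A mean below 1 FPKM in DMSO was found for 56.0% and 57.9% of them, against 28.3% of all genes tested.

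ZNF595, a KRAB zinc finger gene at the tip of the short arm of chromosome 4 (chr4:53285-88211 in hg38), had the largest rise at 80 nM after DEFA1, which is described with the granule genes. It was at 0.565 and 0.0703 FPKM in DMSO, 0.518 and 0.327 at 3.2 nM, 4.63 and 4.52 at 16 nM, and 56.9 and 60.5 at 80 nM. No library of one dose overlapped those of the next above 3.2 nM. The log2 change was 2.70 (SE 0.17, adjusted p = 4.43e-12) at 16 nM and 6.25 (SE 0.17, adjusted p = 1.38e-21) at 80 nM. Its neighbour ZNF718 was at 3.29 and 3.31 FPKM in DMSO and 7.4 and 7.53 at 80 nM, a change of 1.07, while ZNF141 and ZNF721 of the same chromosome end stayed uncalled with differences of 0.17 each. In all 2 of 6 listed genes of this chromosome end were called higher at 80 nM, beside 6.51% of all genes tested. The list includes ZNF595 itself and was chosen with earlier results of these data known. Its count is therefore no separate evidence about the chromosome end.

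MLPH, melanophilin, a linker of melanosomes to myosin (chr2:237485428-237555318), had the largest rise at 16 nM among called genes with a symbol, leaving out small RNAs and genes known by a clone name only. It was at 0.876 and 1.15 FPKM in DMSO, 1.71 and 2.3 at 3.2 nM, 12.8 and 12.5 at 16 nM, and 46.6 and 55.8 at 80 nM. Each dose stood above the one before it in both libraries. The log2 change was 3.13 (SE 0.19, adjusted p = 2.18e-12) at 16 nM and 5.09 (SE 0.19, adjusted p = 1.51e-18) at 80 nM.

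NR5A1 and CYP11A1, both called higher at 16 and 80 nM, are described side by side, though no list of steroid synthesis genes was counted. NR5A1 (chr9:124481236-124507430) encodes SF-1, the nuclear receptor that drives steroid hormone synthesis in the adrenal gland and gonads, and CYP11A1 (chr15:74337759-74367740) encodes the enzyme that starts that synthesis from cholesterol and is a known target of SF-1. NR5A1 was at 0.116 and 0.00556 FPKM in DMSO, 2.07 and 2.67 at 16 nM, and 12.7 and 13.8 at 80 nM. CYP11A1 was at 0.283 and 0.0881 FPKM in DMSO, 2.39 and 2.11 at 16 nM, and 37.7 and 39.7 at 80 nM. Their log2 changes at 16 nM were 2.35 (SE 0.14, adjusted p = 2.18e-12) and 2.02 (SE 0.12, adjusted p = 1.89e-12), and at 80 nM 4.62 (SE 0.14) and 5.85 (SE 0.12). In the step from 16 to 80 nM CYP11A1 rose by 3.84 (SE 0.12) and NR5A1 by 2.27 (SE 0.14).

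The RefSeq promoter windows of ZNF595 and CYP11A1 (GRCh38.p14, 250 bases before to 50 after the start, in the direction of the gene) are shown because these genes are among those with the largest changes, and because they differ in how many sites for DNMT1 they hold. Capitals mark CG, the dinucleotide that DNMT1 methylates. The window of ZNF595 (chr4:53071-53370, plus strand) holds 12 and that of CYP11A1 (chr15:74367597-74367896, minus strand) holds 5, beside a median of 14 over 35116 windows (quartiles 4 and 28). DNA methylation was not analysed here.
ZNF595: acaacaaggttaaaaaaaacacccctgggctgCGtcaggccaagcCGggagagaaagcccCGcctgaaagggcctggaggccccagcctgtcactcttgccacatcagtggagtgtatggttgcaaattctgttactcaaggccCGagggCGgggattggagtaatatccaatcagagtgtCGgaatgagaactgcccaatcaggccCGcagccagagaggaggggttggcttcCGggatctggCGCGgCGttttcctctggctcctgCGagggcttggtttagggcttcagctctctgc
CYP11A1: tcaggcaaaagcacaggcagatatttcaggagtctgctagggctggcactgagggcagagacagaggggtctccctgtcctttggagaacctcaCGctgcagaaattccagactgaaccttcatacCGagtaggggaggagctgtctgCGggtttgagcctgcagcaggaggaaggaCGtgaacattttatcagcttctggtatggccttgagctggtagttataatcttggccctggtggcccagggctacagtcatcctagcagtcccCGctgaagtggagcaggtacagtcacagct

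CCL1, IL32, SERPINA1 and PRLH were also among the genes that the naming rule took for their rise at 16 nM. CCL1, a chemokine, was at 1.66 and 0.674 FPKM in DMSO, 9.16 and 7.54 at 16 nM, and 47.4 and 39.9 at 80 nM. IL32, a proinflammatory cytokine of T and NK cells, was at 0.179 and 0.381 FPKM in DMSO, 4.75 and 2.33 at 16 nM, and 22.9 and 19.2 at 80 nM. SERPINA1, which encodes alpha-1 antitrypsin, was at 3.3 and 2.57 FPKM in DMSO, 17.4 and 14.3 at 16 nM, and 63 and 70.8 at 80 nM. In each of these the groups did not overlap. The log2 changes at 16 nM were 2.47 for CCL1 (SE 0.27, adjusted p = 2.3e-07), 2.32 for IL32 (SE 0.19, adjusted p = 1.34e-09) and 2.25 for SERPINA1 (SE 0.17, adjusted p = 2.25e-10). PRLH, which encodes prolactin-releasing peptide, was at 0 and 0.131 FPKM in DMSO, 2.81 and 2.24 at 16 nM, and 13.4 and 5.88 at 80 nM. SNORA81, a small RNA gene, had a larger fitted change (4.34), but it was at 0 in both DMSO libraries, at 8.05 and 10.2 FPKM already at 3.2 nM, at 10.2 and 9.12 at 16 nM, and at 23 and 0 at 80 nM, and it lost its call without any 1 of the 4 libraries compared.

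**Figure D2:**
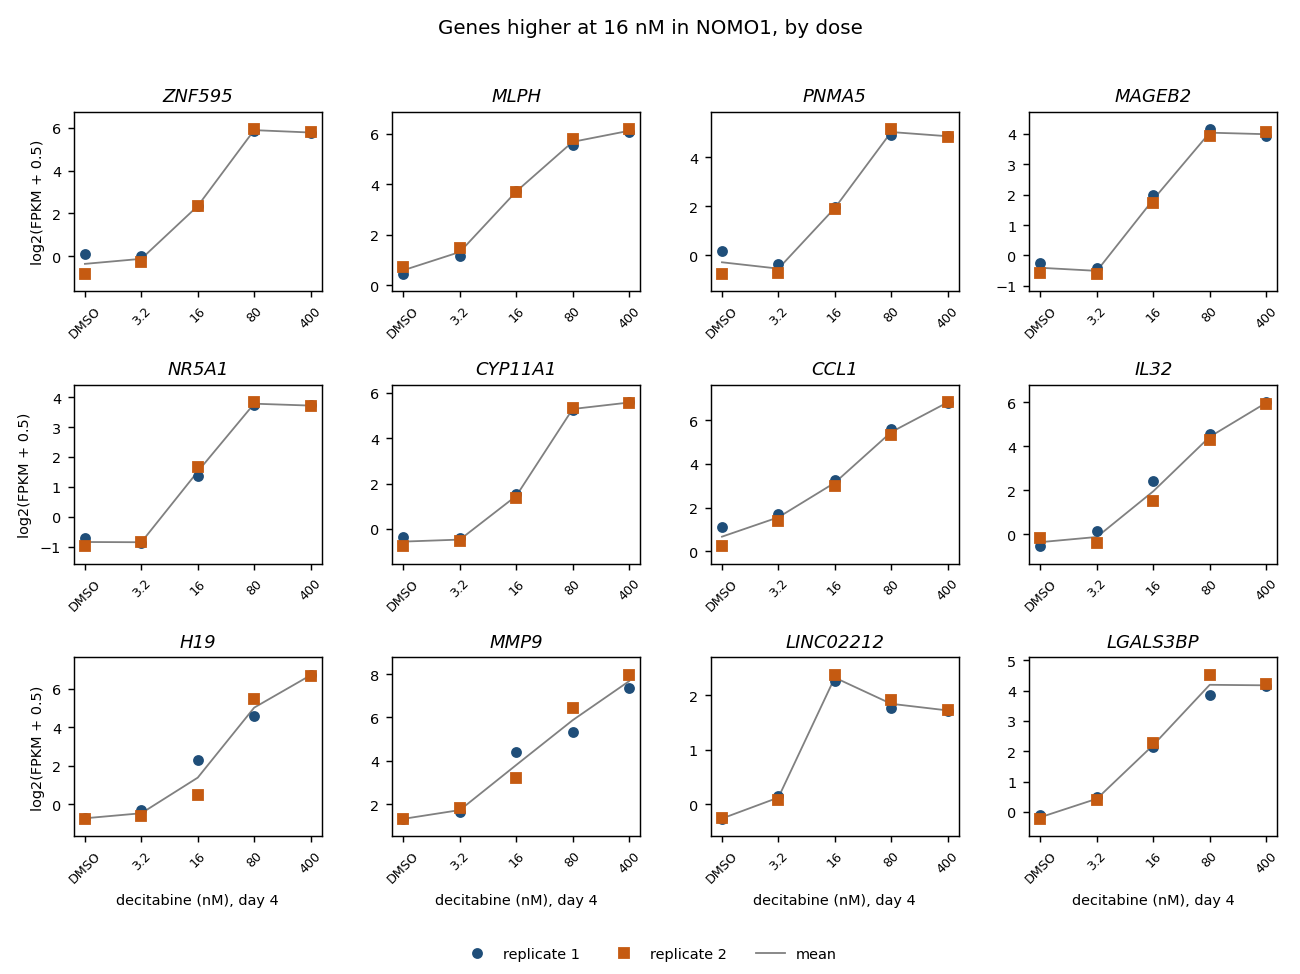
Level as log2(FPKM + 0.5) of 12 genes called higher at 16 nM, by DAC dose at day 4 (DMSO, then 3.2, 16, 80 and 400 nM, evenly spaced). Circles are replicate 1, squares replicate 2 and lines the means. Most rise over each step from 3.2 to 80 nM, and LINC02212 has its highest level at 16 nM.

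Germline and cancer-testis genes, which are normally transcribed in the germ line, gave 4 calls at 16 nM, all higher, and 20 at 80 nM, all higher, of 49 listed. The shares called higher over all genes tested were 1.04% and 6.51%. Of the 49, 30 passed the filter on low values, which a gene silent in DMSO can pass only through treated libraries. The median log2 change of the 30 was 0.22 at 16 nM and 1.82 at 80 nM, beside 0.00 over all genes at both doses. The 4 at 16 nM were MAGEB2, PNMA5, TKTL1 and MAGEA4. MAGEB2, a MAGE family antigen (chrX:30215560-30220089), was at 0.342 and 0.176 FPKM in DMSO, 3.43 and 2.77 at 16 nM, and 17.3 and 14.7 at 80 nM. PNMA5, a paraneoplastic antigen gene, was at 0.624 and 0.0955 FPKM, 3.43 and 3.15, and 29.5 and 34.7. Both rose at 16 and at 80 nM without overlap, by 2.25 (SE 0.11) and 2.21 (SE 0.21) at 16 nM and 4.45 (SE 0.11) and 5.31 (SE 0.21) at 80 nM. MAGEA4 lost its call at 16 nM without DMSO replicate 2 (1.2 with it and 0.96 without). RHOXF2, a homeobox gene of the testis, was at 0.663 and 0.518 FPKM at 16 nM and 13.8 and 14.1 at 80 nM, a step of 3.73 (SE 0.13, adjusted p = 3.4e-18), and it was at 0.098 and 0 in DMSO. GTSF1, a germ-line piRNA factor that NOMO1 already expressed, was at 148 and 155 FPKM in DMSO and 151 and 109.6 at 80 nM, with no call.

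FAM9C (chrX:13035618-13044682), another gene of testis, was at 1.33 and 0.5 FPKM at 16 nM and 23.1 and 32 at 80 nM. This step, 4.35 (SE 0.21, adjusted p = 2.18e-15 in limma), was the largest rise between these doses among the genes taken by the naming rule. HIST1H1T, the testis-specific linker histone, was at 0.469 and 0.146 FPKM in DMSO, 0.789 and 0.4 at 16 nM, and 19.5 and 14.5 at 80 nM. It was uncalled at 16 nM (0.44, adjusted p = 0.119) and rose by 4.01 (SE 0.17, adjusted p = 1.93e-16) from 16 to 80 nM. HIST1H4F, of the same cluster on chromosome 6, went from 1.92 and 0.821 FPKM at 16 nM to 34.2 and 25.5, a step of 4.07 (SE 0.55). In the list of 16 replication-linked histones 1 was called at 80 nM, HIST1H3C, from 4.59 and 6.65 FPKM to 51.7 and 56.3. That is near the 6.51% of all genes tested that were called higher at 80 nM. The list as a whole leaned the other way, with a median log2 change of -0.57. In limma 1 member was higher and 12 lower at an unadjusted p below 0.05. The abundant HIST1H1B was at 2400.4 and 2531 FPKM in DMSO and 1804 and 1507 at 80 nM, uncalled.

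GATA1, GATA2 and the platelet genes ITGA2B, GP9 and PPBP were called higher than in DMSO at both doses. GATA1 (chrX:48786554-48794311), the master regulator of erythroid cells, megakaryocytes and eosinophils, was at 0.208 and 0.253 FPKM in DMSO, 0.387 and 0.372 at 3.2 nM, 2.85 and 2.6 at 16 nM, and 17.4 and 18.6 at 80 nM. GATA2, which acts in stem cells, mast cells and basophils, was at 8.38 and 8.3 FPKM, 10.2 and 9.88, 25.6 and 23.6, and 98.9 and 146 in the same order. At 16 nM the log2 change was 2.14 for GATA1 (SE 0.14, adjusted p = 7.1e-12) and 1.5 for GATA2 (SE 0.17, adjusted p = 4.67e-07). At 80 nM it was 4.66 (SE 0.14) and 3.77 (SE 0.17). In the erythroid and megakaryocyte list 5 of 21 genes were called higher at 16 nM and 7 at 80 nM, none lower, beside 1.04% and 6.51% higher over all genes tested. Of the 21, 10 passed the filter on low values. The 5 were GATA1, GATA2 and the platelet genes ITGA2B, GP9 and PPBP. ITGA2B, the platelet fibrinogen receptor subunit, was at 1.54 and 1.84 FPKM in DMSO, 7.2 and 7.26 at 16 nM, and 48.8 and 56.4 at 80 nM. GP9, of the von Willebrand factor receptor, was at 3.47 and 3.82 FPKM, 9.96 and 11.6, and 11.1 and 10.1, so it differed by -0.03 (95% interval -0.44 to 0.39) between 80 and 16 nM. The other 2 called at 80 nM were the alpha globin genes HBA1 and HBA2, near-identical copies whose reads may be split, with HBA1 at 0.885 and 1.43 FPKM. The beta globin gene HBB was at 0 in both 80 nM libraries.

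Genes of eosinophils, basophils and mast cells were looked at after their values had been seen, with no list of them to count. PRG2, the eosinophil major basic protein (chr11:57386794-57390657), was at 98.3 and 67.6 FPKM in DMSO, 88 and 91.3 at 3.2 nM, 281 and 280.4 at 16 nM, and 1252 and 736 at 80 nM. CLC, the Charcot-Leyden crystal protein (chr19:39731250-39738028), was at 97.8 and 74.1, 91.2 and 95.5, 338 and 287, and 1594 and 848. EPX, eosinophil peroxidase, was at 10.9 and 7.59 FPKM in DMSO, 25.5 and 24.6 at 16 nM, and 82.5 and 86.9 at 80 nM. All 3 were higher at 16 nM than in DMSO, and at 80 nM than at 16 nM, without overlap. At 3.2 nM their levels lay within the DMSO range, with EPX at 9.05 and 9.09 FPKM, and the 80 nM libraries differed from each other in PRG2 and CLC. The log2 changes at 16 nM were 1.78 (SE 0.14), 1.86 (SE 0.18) and 1.41 (SE 0.23), and at 80 nM 3.55 (SE 0.14), 3.76 (SE 0.18) and 3.15 (SE 0.23). HDC, which makes histamine in basophils and mast cells, went from 0.195 and 0.114 FPKM to 1.77 and 1.48 at 16 nM and 11.3 and 17.6 at 80 nM. PTGDR2, a prostaglandin D2 receptor of these cells, went from 0.123 and 0.0711 FPKM to 1.53 and 1.22 and then 9.53 and 8.85. Not all such genes moved: RNASE2, another eosinophil granule gene, was at 565 and 705 FPKM in DMSO and 914 and 611 at 80 nM. Mast cell genes were mixed. At 80 nM MS4A2 was at 0.0491 and 0.296 FPKM and CPA3 at 0. In the authors' deposited log2 fold changes the mast cell tryptase genes TPSAB1 and TPSB2 are at 2.73 and 2.83 for 80 nM, beside 0.37 for MS4A2 and 0.0 for CPA3.

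**Figure D3:**
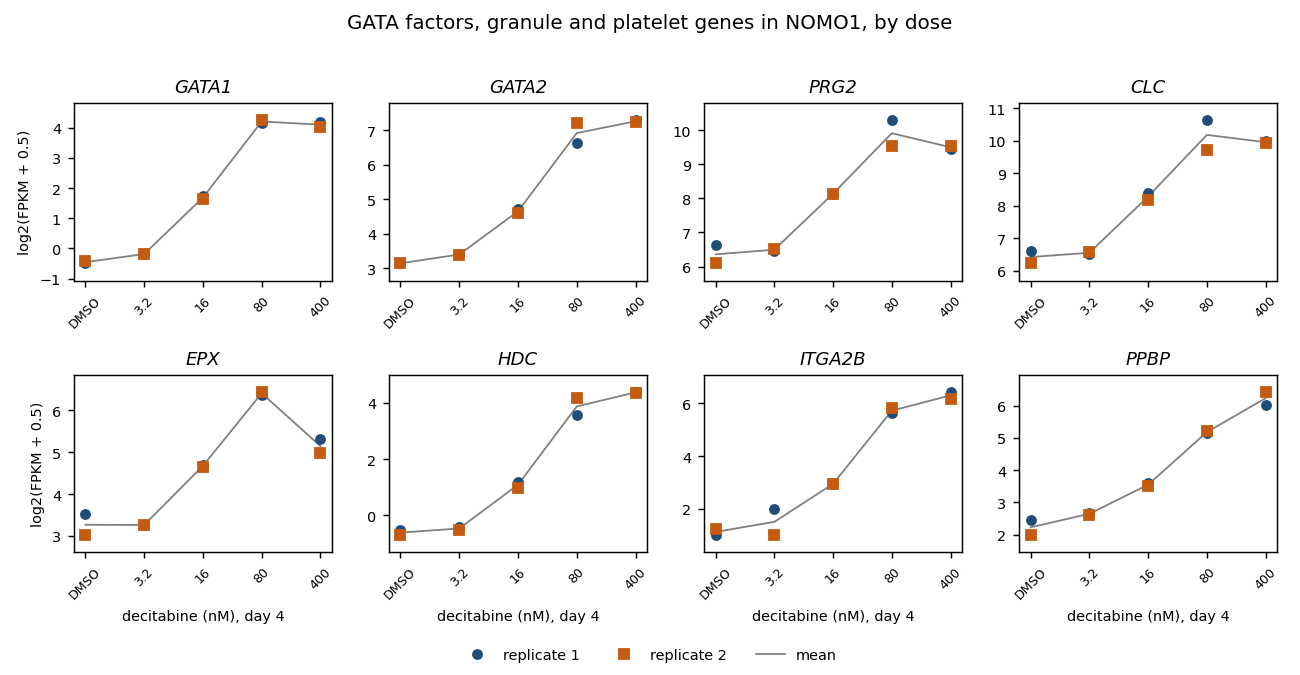
Level as log2(FPKM + 0.5) of GATA1, GATA2, the granule genes PRG2, CLC and EPX, HDC, and the platelet genes ITGA2B and PPBP by DAC dose at day 4. Circles are replicate 1, squares replicate 2 and lines the means. EPX falls from 82.5 and 86.9 FPKM at 80 nM to 39.4 and 30.9 at 400 nM.

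The promoter windows of GATA1 and CLC are printed because these genes rose together from different starting levels, GATA1 from near 0 and CLC from a level already high. Capitals again mark CG, of which the GATA1 window (chrX:48786340-48786639, plus strand) holds 7 and the CLC window (chr19:39737980-39738279, minus strand) holds 2.
GATA1: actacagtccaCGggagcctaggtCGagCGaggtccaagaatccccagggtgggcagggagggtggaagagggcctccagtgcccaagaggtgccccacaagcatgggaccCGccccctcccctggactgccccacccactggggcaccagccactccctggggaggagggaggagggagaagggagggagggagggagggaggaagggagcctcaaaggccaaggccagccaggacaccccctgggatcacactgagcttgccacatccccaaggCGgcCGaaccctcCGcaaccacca
CLC: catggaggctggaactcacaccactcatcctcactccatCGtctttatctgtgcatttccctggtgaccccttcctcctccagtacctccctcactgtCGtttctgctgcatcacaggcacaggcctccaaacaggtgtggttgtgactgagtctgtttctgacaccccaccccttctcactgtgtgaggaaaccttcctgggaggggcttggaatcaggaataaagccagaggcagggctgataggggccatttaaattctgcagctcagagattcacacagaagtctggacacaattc

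Inflammatory genes were called mainly at 80 nM, where 6.51% of all genes tested were called higher and 2.41% lower (1.04% higher at 16 nM). In the NF-kB and inflammation list 2 of 30 were higher at 16 nM (IL1B and PTGS2), and at 80 nM 22 were higher and 1, the lymph node homing receptor CCR7, lower, with a median log2 change of 0.45 and 1.51. Without the library of 80 nM replicate 2 there were 17 higher and 0 lower, and a median of 1.21. IL1B, interleukin 1 beta, was at 9.69 and 8.55 FPKM in DMSO, 11.3 and 11.7 at 3.2 nM, 26.7 and 19.1 at 16 nM, and 69.1 and 94.3 at 80 nM. PTGS2, the inducible prostaglandin synthase, was at 3.47 and 2.8 FPKM in DMSO, 8.94 and 7.08 at 16 nM, and 18.6 and 24.3 at 80 nM. Their log2 changes at 16 nM were 1.27 (SE 0.24, adjusted p = 0.000717) and 1.22 (SE 0.21, adjusted p = 0.000182). Against 3.2 nM in place of DMSO the IL1B change at 16 nM was 0.94, short of a call. CXCL5, a neutrophil chemokine, was at 0.566 and 0.193 FPKM at 16 nM and 3 and 4.56 at 80 nM, and CCL20 went from 6.9 and 4.93 to 20.9 and 20.3. SOD2, an abundant NF-kB target, was uncalled at 80 nM (56.4 and 60 FPKM in DMSO, 82.9 and 105 at 80 nM).

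Of 45 interferon-stimulated genes listed, 2 were called higher at 16 nM and 11 at 80 nM, with medians of 0.13 and 0.35, and none was called lower. Over all genes tested 1.04% were called higher at 16 nM, and 6.51% higher and 2.41% lower at 80 nM. The 2 were LGALS3BP, a secreted glycoprotein (0.422 and 0.348 FPKM in DMSO, 3.9 and 4.33 at 16 nM, 14 and 22.5 at 80 nM), and IFI6, a mitochondrial antiviral protein (4.47 and 4.92, 11.9 and 9.14, 22.3 and 14.5). IFI6 was already at 8.24 and 8.53 FPKM at 3.2 nM, and lost its 16 nM call without 16 nM replicate 1 (1.08 with it, 0.89 without). CXCL11, a chemokine induced by interferon, was at 0.411 and 0.317 FPKM in DMSO, 0.844 and 0.787 at 16 nM, and 3.81 and 3.14 at 80 nM, a change of 2.20 (SE 0.14). BST2, tetherin, was at 178 and 181 FPKM in DMSO and 160.5 and 88 at 80 nM. Among 31 sensors and regulators of the interferon response none was higher, and IRF8, a transcription factor of monocytes and dendritic cells, fell from 56.2 and 66.4 FPKM to 22.4 and 35.3 at 80 nM (-1.10, SE 0.15); without DMSO replicate 2, or without 80 nM replicate 1, it was no longer called.

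**Figure D4:**
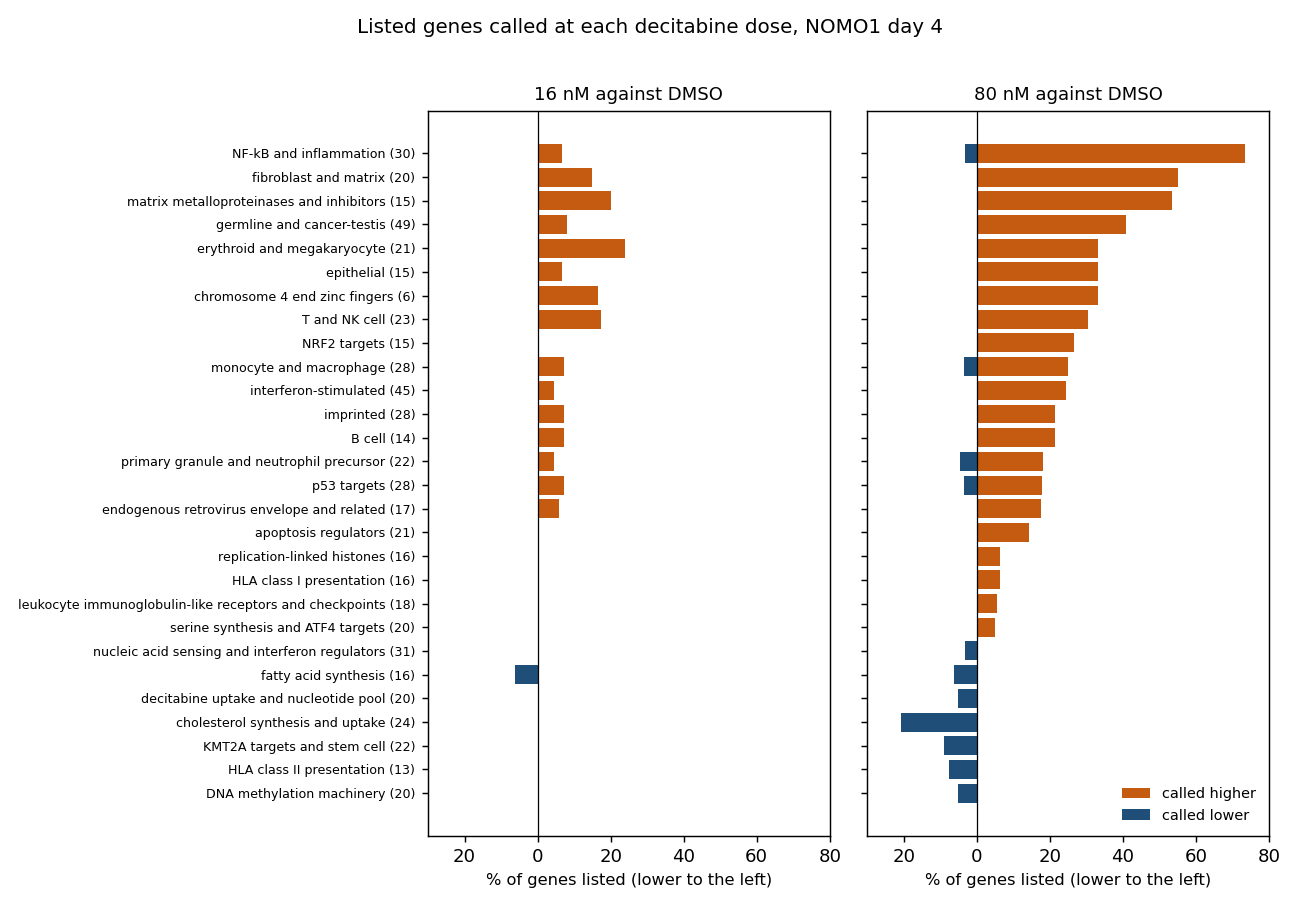
Share of the genes of each list called higher (right of 0) or lower (left of 0) at 16 nM and at 80 nM DAC against DMSO; the number of genes listed is in brackets, and lists without a call at either dose are left out. At 80 nM the NF-kB and inflammation list has the longest bar (22 of 30).

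Of 15 metalloproteinases and their inhibitors 3 were higher at 16 nM and 8 at 80 nM (6 without the library of 80 nM replicate 2). MMP9, gelatinase B, was at 1.98 and 2.01 FPKM in DMSO, 20.6 and 8.79 at 16 nM, and 39.2 and 86.2 at 80 nM, so its treated libraries were far apart within a dose but did not overlap between doses. MMP14, a membrane-bound activator of other proteases, was at 10.6 and 8.36 FPKM, 26.8 and 24.4, and 79.6 and 105. The fibroblast and matrix list gave 3 of 20 at 16 nM, COL6A3, SPARC and COL1A1, and 11 at 80 nM (8 without replicate 2). COL6A3, a collagen VI chain, was at 0.439 and 0.328 FPKM in DMSO, 1.99 and 1.93 at 16 nM, and 2.12 and 2.75 at 80 nM. Without 16 nM replicate 1, SPARC and COL1A1 lost their calls at 16 nM (0.64 and 0.60), as did SPARC without DMSO replicate 2 and COL1A1 without DMSO replicate 1. The defining fibroblast gene COL3A1 was at 0 in all DMSO, 16 and 80 nM libraries. For both lists the share called higher over all genes tested was 1.04% at 16 nM and 6.51% at 80 nM.

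Genes of other blood lineages were called too, beside shares called higher over all genes tested of 1.04% at 16 nM and 6.51% at 80 nM. In the T and NK cell list 4 of 23 were higher at 16 nM (PRF1, CD3D, TRAC and LCK) and 7 at 80 nM. The filter on low values passed 14 of the 23. CD3D, part of the T cell receptor complex, was at 12.6 and 10.3 FPKM in DMSO, 34.6 and 30.4 at 16 nM, and 98.2 and 65.4 at 80 nM. CD3E, its partner in that complex, was at 0 in DMSO and at 0.288 and 0.452 FPKM at 80 nM, and CD2, another T cell surface gene, was at 0.164 and 0.233. LCK lost its 16 nM call without 16 nM replicate 1 (0.99) and without DMSO replicate 1 (0.92). PRF1, perforin, was at 0.158 and 0.172 FPKM, 2.09 and 1.56, and 9.8 and 11.5, a rise of 1.8 (SE 0.13) at 16 nM and 4.06 (SE 0.13) at 80 nM. The summed level of the 4 T cell markers was 13 and 10.7 FPKM in DMSO, 36.8 and 31.9 at 16 nM, and 104 and 71.6 at 80 nM, most of it CD3D. The B cell list gave 1 of 14 at 16 nM, CD79B (2.19 and 2.08 to 6.05 and 6.68 FPKM), and 3 at 80 nM, with 7 of the 14 past the filter. KRT8, a keratin of simple epithelia, was at 7 and 7.02 FPKM in DMSO, 28.4 and 30.6 at 16 nM, and 40 and 54.8 at 80 nM, a rise of 2.00 (SE 0.23, adjusted p = 4.36e-07) at 16 nM, whereas CDH1, E-cadherin, was at 0.0563 and 0.126 FPKM at 80 nM.

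Imprinted genes gave 2 calls at 16 nM and 6 at 80 nM of 28 listed, all higher, where 1.04% and 6.51% of all genes tested were called higher. Of the 28, 19 passed the filter on low values, which a gene silent in DMSO can pass only through treated libraries. Such a gene can be called higher but not lower. H19, the maternally expressed noncoding RNA (chr11:1995176-2001470), was at 0.115 and 0.0829 FPKM in DMSO, 4.33 and 0.888 at 16 nM, and 23.1 and 43.5 at 80 nM. The 16 nM libraries differed widely from each other, and both lay above DMSO and below 80 nM. The log2 change was 2.11 (SE 0.34, adjusted p = 9.44e-05) and 5.75 (SE 0.34, adjusted p = 5.22e-14). This SE comes from the spread shared over all groups, not from the 16 nM pair alone. CDKN1C, a maternally expressed cell cycle inhibitor, was at 1.89 and 1.69 FPKM, 4.91 and 4.46, and 12.4 and 14.5. MEG3 and MEG8, noncoding RNAs of a chromosome 14 cluster, were uncalled at 16 nM and higher at 80 nM (MEG3 0.2 and 0.0757 FPKM at 16 nM, 1.31 and 2.71 at 80 nM). Of 17 listed envelope genes of endogenous retroviruses and related genes, 8 passed the filter. Among them 1 was higher at 16 nM (ARC, lost without 16 nM replicate 2 or DMSO replicate 1) and 3 at 80 nM. ERVH48-1 went from 0.0496 and 0.0204 FPKM in DMSO to 0.55 and 0.479 and then 2.92 and 2.59.

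In the cells' own monocytic lineage 2 of 28 listed genes were higher at 16 nM, and 7 were higher and 1, VCAN, lower at 80 nM. Of all genes tested 1.04% were called higher at 16 nM, and 6.51% higher and 2.41% lower at 80 nM. CD14, the endotoxin co-receptor of monocytes, was at 1.77 and 1.82 FPKM in DMSO, 5.62 and 4.08 at 16 nM, and 19.9 and 32.4 at 80 nM (3.5, SE 0.24, adjusted p = 2.06e-12), and its 16 nM call was lost without 16 nM replicate 1. STAB1, a scavenger receptor of macrophages, was at 0.129 and 0.102 FPKM, 2.13 and 1.95, and 8.1 and 11.9. Abundant members were uncalled at both doses, such as LYZ, lysozyme, at 3752 and 3714 FPKM in DMSO and 4539.9 and 4564 at 80 nM. In the list of 22 primary granule and neutrophil precursor genes 1 was called higher at 16 nM, and 4 were higher and 1 lower at 80 nM. The median log2 change of that list at 80 nM was 0.28, and 0.57 without 80 nM replicate 2. DEFA4, a defensin of neutrophil precursors, was at 491 and 487 FPKM in DMSO, 299 and 282 at 16 nM, and 175 and 102 at 80 nM, a fall of -1.87 (SE 0.15). MPO, the primary granule peroxidase, was at 1512 and 1770 FPKM, 1404 and 1629, and 737 and 932, a difference of -0.98 at 80 nM, just short of a call. DEFA1 had the largest fitted rise at 80 nM (6.94), but it has near-identical copies, its 80 nM libraries were at 29 and 134 FPKM, and its call was lost without replicate 2 (5.84, adjusted p = 0.0596).

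Of the 28 genes called lower at 16 nM 11 were protein-coding and 9 were small RNAs. By the naming rule 7 of the 8 with the largest falls were small RNAs or, in 1 case, a pseudogene, and ALDOC was the other. MIR1537 was at 20.3 and 17.3 FPKM in DMSO and at 0 in both 16 nM libraries. Leaving out small RNA genes, an added step, brought up CCR2, the receptor for the monocyte chemoattractant CCL2. CCR2 was at 26.1 and 28.2 FPKM in DMSO, 19.7 and 20.6 at 3.2 nM, 11.7 and 10.8 at 16 nM, and 4.16 and 3.16 at 80 nM, a fall of -1.23 (SE 0.09, adjusted p = 4.31e-11) and then -2.74 (SE 0.09). Against 3.2 nM the CCR2 change at 16 nM was -0.81, short of a call. CLSTN2, a calsyntenin, was at 6.9 and 6.96 FPKM, 5.65 and 6.25, 2.99 and 2.41, and 1.13 and 1.04. F13A1, a coagulation factor subunit made by monocytes, was at 58.2 and 51.4 FPKM in DMSO, 25.3 and 25.3 at 16 nM, and 11 and 11.6 at 80 nM. The receptor kinases of stem and progenitor cells FLT3 and KIT were the 2 genes called lower at 80 nM in the list of 22 KMT2A target and stem cell genes. None of the 22 was called at 16 nM. The share called lower at 80 nM over all genes tested was 2.41%. FLT3 (chr13:28003274-28100592) was at 19.5 and 19.6 FPKM in DMSO, 10.9 and 10.3 at 16 nM, and 4.53 and 3.79 at 80 nM, a difference of -0.85 (SE 0.10) and then -2.11 (SE 0.10, adjusted p = 9.87e-16). KIT was at 23.3 and 20, 13.7 and 10.4, and 6.63 and 5.37. MYB of the same list was at 133 and 119 FPKM in DMSO and 111 and 108 at 80 nM.

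The window of FLT3 (chr13:28100527-28100826, minus strand) is printed as that of a gene that fell. It holds 34 CG, shown in capitals, and 85.9% of all windows hold as many or fewer. The CG count varied among genes of either direction: the windows of CCR2 and F13A1, which also fell, hold 2 and 8, and those of BTG2 and ADAM8, both called higher at 80 nM, hold 34 and 29.
FLT3: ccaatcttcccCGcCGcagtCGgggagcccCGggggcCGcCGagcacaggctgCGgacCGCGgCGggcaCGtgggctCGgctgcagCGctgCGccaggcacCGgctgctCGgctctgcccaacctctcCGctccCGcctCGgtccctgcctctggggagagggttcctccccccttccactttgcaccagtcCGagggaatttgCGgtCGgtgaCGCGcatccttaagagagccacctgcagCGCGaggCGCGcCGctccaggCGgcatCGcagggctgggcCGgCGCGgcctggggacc

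In the lipid synthesis lists the calls against DMSO were all lower, SCD at both doses and 5 cholesterol genes at 80 nM. The shares called lower over all genes tested were 0.135% at 16 nM and 2.41% at 80 nM. SCD, which makes monounsaturated fatty acids, was at 138 and 138 FPKM in DMSO, 85 and 97.1 at 3.2 nM, 66 and 61.2 at 16 nM, and 42.6 and 39.6 at 80 nM. It was the single call of the 16 fatty acid genes at 16 nM (-1.11, SE 0.17, adjusted p = 3.91e-05) and at 80 nM (-1.74, SE 0.17), where 10 genes of the list were lower and 4 higher at an unadjusted p below 0.05. Without 80 nM replicate 2 there were 4 calls at 80 nM, SCD (-1.68), FASN (-1.20), FADS2 (-1.05) and the regulator SREBF1 (-1.21). Of 24 genes of cholesterol synthesis and uptake 0 were called at 16 nM by limma (19 lower and 0 higher at an unadjusted p below 0.05) and 5 at 80 nM, all lower, with medians of -0.43 and -0.71. HMGCS1, an early enzyme of the pathway, was at 223 and 224 FPKM in DMSO, 150.3 and 162 at 3.2 nM, 150.2 and 132 at 16 nM, and 104 and 81.2 at 80 nM. LSS, lanosterol synthase, was at 55.2 and 59.3, 36.5 and 37.7, 28.1 and 30.4, and 17.3 and 24.5. Part of the distance to DMSO was thus present at 3.2 nM. With the 3.2 nM libraries as the control the differences at 80 nM were -0.76 for HMGCS1, -0.83 for LSS and -0.78 for MVD, none called, and SCD at 16 nM was at -0.51.

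A further group had its largest distance to DMSO at or near 3.2 nM. Besides ALDOC, MIR210HG, the host transcript of the hypoxia-induced microRNA it is named for, was at 2.6 and 3.61 FPKM in DMSO, 0.656 and 0.427 at 3.2 nM, 0.603 and 0.852 at 16 nM, and 0.664 and 1.41 at 80 nM. FLT1, a VEGF receptor, was at 4.31 and 2.8, 0.615 and 0.655, 1.01 and 0.747, and 1.94 and 1.82. ALDOC, FLT1 and MIR210HG were called lower at 16 nM against DMSO, and against 3.2 nM their differences at 16 nM were 0.48, 0.27 and 0.24, uncalled. All 3 lost the 16 nM call when either DMSO library was left out. These 3 genes were looked at after their values had been seen. With GSK032 at 80 nM all 3 were above both DMSO libraries, with ALDOC at 33.3 and 46.7 FPKM. Other genes looked at in the same way were mixed. In the authors' deposited log2 fold changes for 3.2 nM, CA9 is at -5.59, RAB17 at -1.94 and EGLN3 at -1.61. PFKFB4 is at -0.82, BNIP3 at -0.71, NDRG1 at -0.45, ADM at -0.33, VEGFA at -0.32 and ANKRD37 at -0.13. For 80 nM, NDRG1, ADM, VEGFA and ANKRD37 are at 0.67, 0.76, 0.34 and 0.28. What sets the DMSO level of the genes of this group and of the lipid genes was not tested.

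**Figure D5:**
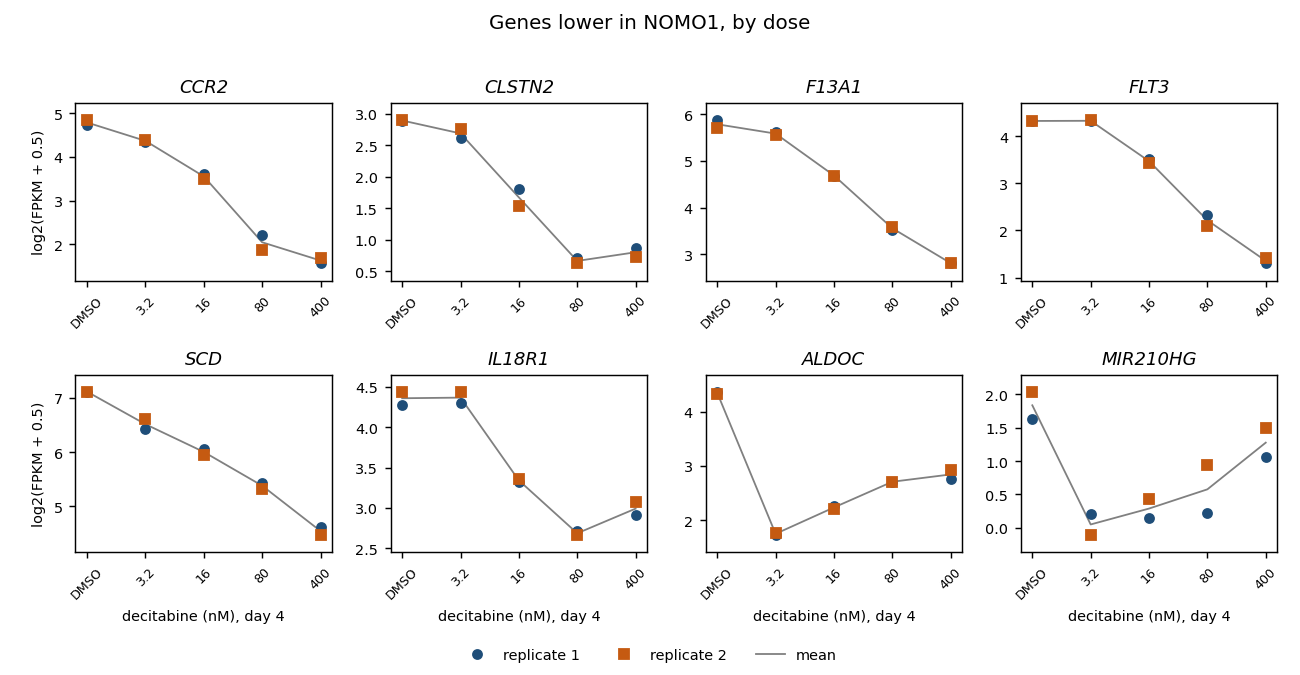
Level as log2(FPKM + 0.5) of 8 genes called lower at 16 or 80 nM, by DAC dose at day 4. Circles are replicate 1, squares replicate 2 and lines the means. CCR2, CLSTN2, F13A1, FLT3 and SCD fall over the doses to 80 nM, while ALDOC and MIR210HG are lowest near 3.2 nM.

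At 80 nM the 8 genes with the largest falls by the naming rule were small RNAs, 7 snoRNAs and MIR15B. Without the library that stood apart, SNORA15 and MIR15B were the 2 of them still called. SNORD97 was at 1114 and 1337 FPKM in DMSO, 855 and 927 at 16 nM, and 707 and 2.03 at 80 nM. Its change of -4.85 became -0.79 without 80 nM replicate 2. SNORA63 went from -3.97 to 0.21. Ribosomal protein and oxidative phosphorylation genes were also lower in that library: RPS18 was at 2713 and 1396 FPKM and COX7C at 691 and 373 in replicates 1 and 2, and the list medians of -0.39 and -0.38 were -0.20 and -0.17 without it, with 0 calls of 28 and of 26 in limma (23 and 19 lower at an unadjusted p below 0.05 with the library). HHLA2, an immune checkpoint ligand, fell whichever library was left out, from 36 and 31 FPKM in DMSO to 25.8 and 17.2 at 16 nM and 7.96 and 4.08 at 80 nM (-2.45, SE 0.30, and -2.00 without replicate 2).

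Calls in the lists of p53 and NRF2 targets were higher but for 1 gene, and the S phase and mitosis lists gave none. Of 28 p53 targets 2 were higher at 16 nM, GDF15, a stress cytokine (4.6 and 3.8 FPKM in DMSO, 11.5 and 11.3 at 16 nM, 35.1 and 40.7 at 80 nM), and TP53I3, and at 80 nM 5 were higher and 1, TRIAP1, lower, where 6.51% and 2.41% of all genes tested were called. TRIAP1 was at 33.2 and 35.1 FPKM in DMSO and 24.5 and 11 at 80 nM, and its change of -1.03 became -0.47, uncalled, without replicate 2. TP53I3 lost its 16 nM call without 16 nM replicate 1 (0.90) and without DMSO replicate 2 (0.92). MDM2, the ubiquitin ligase that p53 induces, was at 176 and 137 FPKM in DMSO and 204 and 125 at 80 nM. HMOX1, heme oxygenase, led the 4 of 15 NRF2 targets that were higher at 80 nM, at 4.26 and 4.42 FPKM in DMSO, 9.44 and 8.09 at 16 nM, and 17.5 and 23.7 at 80 nM. Among 35 genes of S phase and 30 of mitosis 0 were called by limma at either dose, with medians of -0.20 and -0.02 at 80 nM. At an unadjusted p below 0.05, 1 S phase gene was higher and 19 lower at 80 nM, and 5 mitosis genes were higher and 4 lower. MCM7, a replicative helicase subunit, was at 277 and 316 FPKM in DMSO and 239.6 and 278 at 80 nM.

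Between the doses, 612 genes were higher and 207 lower at 80 nM than at 16 nM (2.95% and 0.997% of genes tested), and 584 and 72 without 80 nM replicate 2 (2.81% and 0.347%). Of the 207, 96 were small RNA genes. The genes called at both steps with the largest smaller step were ZNF595, CCL1, IL32, NR5A1 and PNMA5. For these the second step was 3.54 (SE 0.17), 2.32 (SE 0.27), 2.48 (SE 0.19), 2.27 (SE 0.14) and 3.10 (SE 0.21) on the log2 scale. LINC02212, a long noncoding RNA, went the other way, with 0.328 and 0.339 FPKM in DMSO, 4.32 and 4.69 at 16 nM, and 2.91 and 3.27 at 80 nM, a difference of -0.48 (SE 0.12, adjusted p = 0.00369) that is significant but under the size of a call.

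From 80 to 400 nM 901 genes were higher and 152 lower (4.34% and 0.732%), and 958 and 217 without 80 nM replicate 2 (4.61% and 1.05%). Several of the genes above had levels at 400 nM near those at 80 nM. ZNF595 was at 54.2 and 54.4 FPKM at 400 nM, with a log2 difference of -0.11 (95% interval -0.46 to 0.24), GATA1 at 17.8 and 15.7 (-0.39 to 0.18), MAGEB2 at 14.6 and 16.2 (-0.28 to 0.17) and NR5A1 at 12.9 and 12.4 (-0.36 to 0.23). These intervals hold changes of up to about 0.5 in size, and do not show equality. Others rose on: H19 reached 105 and 101 FPKM (1.68, SE 0.34), MMP9 166 and 251 (1.8, SE 0.37), IL1B 186 and 235 (1.37, SE 0.24) and SPARC 16.5 and 20 (2.78, SE 0.35). DAZL, a germ cell RNA-binding protein, went from 3.27 and 2.69 to 19.7 and 22.4 (2.64, SE 0.17). EPX fell from 82.5 and 86.9 FPKM to 39.4 and 30.9 (-1.27, SE 0.23, adjusted p = 5.31e-05), and MPO from 737 and 932 to 233 and 229 (-1.84, SE 0.13).

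At the matched dose of 80 nM, day 4, DAC and GSK032 differed in 1125 genes higher and 434 lower with DAC (5.42% and 2.09%), and 1033 and 256 without the DAC library of replicate 2 (4.98% and 1.23%). GSK032 is a non-nucleoside, reversible inhibitor of DNMT1. The doses match in concentration only, and how far each compound inhibited DNMT1 at 80 nM was not tested here. At 80 nM of GSK032 ZNF595 was at 0.266 and 0.23 FPKM, CYP11A1 at 0.309 and 0.134, FAM9C at 0.0716 and 0.0642, and PNMA5 at 0.262 and 0.056. DAC was higher by 6.31 (SE 0.17), 5.77 (SE 0.12), 5.61 (SE 0.21) and 5.64 (SE 0.21) on the log2 scale. Of 49 germline genes 20 were higher with DAC and 0 lower. LINC02212 was at 1.33 and 1.41 FPKM with 80 nM GSK032, above both DMSO libraries, and GATA1 at 0.472 and 0.891. Scaling every library to the same sum moved the share of higher genes among those called in this comparison from 72.2% to 82.6%, and in 80 against 16 nM from 74.7% to 84.7%. Small RNA genes made up most of the FPKM sum in each library of these comparisons. The sum of 80 nM DAC replicate 2 was the lowest among them, both with small RNA genes and without. This scaling therefore raised the genes of that library relative to the others. How much of the shift came from that library was not tested.

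In the authors' deposited table of log2 fold changes, which has no p-values, all 216 genes called higher and all 28 called lower at 16 nM had the same sign, as did all 1352 and 500 at 80 nM. The table and the tests come from the same libraries. In the authors' deposited table ZNF595 is at 3.84 for 16 nM and 7.53 for 80 nM, and DAZL at 4.61 and 8.56, above the 0.44 and 2.77 found here on the log2(FPKM + 0.5) scale. Over genes called higher at 80 nM the median is 2.37 in the authors' deposited table.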

How the data were processed

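RNA-seq libraries of NOMO1 were read from the authors' deposited table of FPKM values, which holds 59939 genes in 52 libraries (26 groups of 2). Salmon 0.12.0, DESeq2 and the hg38 build are named in the submitters' processing notes; how the FPKM were made, and whether strand was used, is not given in the sources used here. The authors' deposited log2 fold changes against DMSO were used for comparison only. Gene IDs were named from GENCODE 29 (56511 matched, 94.3%). Read counts are not in these tables, so the scale per library was estimated from steps between low values, without recovering whole reads.

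Values were tested as log2(FPKM + 0.5) with limma 3.58.1 (R 4.3.3) and a trended prior over all 26 groups (26 residual degrees of freedom), for genes that reached 1 FPKM in 2 or more of the 52 libraries. The test was checked on simulated data. Calls needed an adjusted p below 0.05 and a log2 change of at least 1 in size. Tables were handled with Python 3.11.15, pandas 2.3.3, numpy 2.4.6 and matplotlib 3.10.9.

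Genes were named by rule: the 12 called genes with the largest rises and 8 with the largest falls at 16 and 80 nM, 5 in each direction for the other comparisons, up to 4 called and 2 abundant uncalled genes per list, genes of decitabine's target and uptake, list members called at 16 nM, and the 5 called at both steps with the largest smaller step. Genes shown as looked at after their values were seen, and the second ranking without small RNAs, fall outside it. The 32 lists (732 entries, 642 tested) and the members were chosen with earlier results of these data known. Promoter windows came from RefSeq (GRCh38.p14). Replicate numbers were not taken to pair libraries, since nothing in the labels says what they share. Alternatives covered the pseudocount, filter, scaling, variance prior, groups in the fit, control and each library left out.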

Additional observations from a re-analysis of the deposited data

How the results depend on the processing

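With a pseudocount of 0.1 the genes called higher numbered 1 at 3.2 nM, 466 at 16 nM, 2057 at 80 nM, 1082 for 80 against 16 nM, 1463 for 400 against 80 nM and 1813 for DAC against GSK032. With a pseudocount of 1 they were 124 at 16 nM, 396 for 80 against 16 nM and 585 for 400 against 80 nM. Fitting only the groups compared left 0 calls in either direction at 16 nM, for 80 against 16 nM and for 400 against 80 nM, 0 lower at 3.2 nM, 475 higher and 101 lower at 80 nM, and 330 and 71 against GSK032. The same sum for every library gave 0 lower at 3.2 nM and 16 at 16 nM, and the 3.2 nM libraries as control gave 16 lower at 16 nM. Without small RNA genes, an alternative chosen after seeing the data, 116 were lower for 80 against 16 nM. Median-ratio scaling moved the median over genes for 400 against 80 nM to 0.126.

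Leaving out 1 library at a time gave 0 to 13 higher and 0 to 6 lower at 3.2 nM, 199 to 270 and 17 to 49 at 16 nM, 1254 to 1670 and 305 to 933 at 80 nM, 543 to 911 and 72 to 610 for 80 against 16 nM, 801 to 1148 and 140 to 320 for 400 against 80 nM, and 1033 to 1451 and 256 to 858 against GSK032. With the replicate number as a block, 219 were higher and 33 lower at 16 nM, 1359 and 533 at 80 nM, and 1 and 9 at 3.2 nM; the replicate differences correlated by 0.0715 between DMSO and 16 nM, 0.0446 between DMSO and 80 nM and 0.1297 between 16 and 80 nM, and from 0.0176 to 0.1344 over all pairs of the groups used. Not every pair exceeded 0.1 and the labels name nothing shared, so the numbers were not taken as pairing, although some genes followed the number in every library.

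Against 3.2 nM the sign turned at 16 nM for FLT1 (0.27), ALDOC (0.48), RAB17 (0.06) and MIR210HG (0.24), and at 80 nM for ALDOC (0.96), SNORA81 (-1.48) and MIR210HG (0.53). Without 80 nM replicate 2 it turned for SNORA63, to 0.21 against DMSO, -0.21 for 400 against 80 nM and 0.22 against GSK032, while without replicate 1 these values were -8.15, 8.16 and -8.15. The cause was not tested. Of the named genes, 36 of 70 at 16 nM and 97 of 143 at 80 nM were called under every alternative but the fit of only the groups compared. Depth is known only as an estimated scale, so no counting interval could be given.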
